A study of Homo sapiens with 6 samples.

Results

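MKI67, TOP2A and the 8 subunits of the condensin complexes were followed in HCT116 cells in which PLEK2 was silenced. The 10 genes were taken by symbol from the deposited expression table, where each had 1 of 17047 rows, and all 10 were among the 12959 genes that passed the filter on low counts. Polyadenylated RNA was sequenced from 3 libraries with the non-targeting shRNA (shNC) and 3 libraries with PLEK2 shRNA, as single-end reads of 50 nt. Both groups were HCT116, an established human colorectal carcinoma line, and both carried a viral shRNA construct in the pLKO.1 vector, so the groups differed by the shRNA. The primer list of the study gives a single PLEK2 shRNA, and a second shRNA against PLEK2 was not analysed here. The labels number the libraries 1 to 3 in each group. Nothing in them says that libraries came from separate cultures, so p-values measure the spread between these libraries, which may be technical.

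Mitotic chromosomes are shaped by condensin, a ring of the ATPases SMC2 and SMC4 that extrudes loops of DNA. Condensin I closes this ring with NCAPH and carries NCAPD2 and NCAPG, whereas condensin II uses NCAPH2, NCAPD3 and NCAPG2. Topoisomerase IIα, encoded by TOP2A, passes one DNA duplex through another and separates sister chromatids, and Ki-67, encoded by MKI67, coats the surface of mitotic chromosomes and keeps them apart. Transcripts of these genes are generally more abundant in cycling cells, and MKI67 is a common measure of proliferation.

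Many genes of G2 and mitosis are read from promoters with a CHR element, bound by the DREAM and MuvB complexes, and with CCAAT boxes, bound by NF-Y. Promoter sequences of RefSeq on GRCh38.p14, from 250 bases before to 50 bases after the start, were given for 9 of the 10 genes in 12 windows, since SMC2, SMC4 and NCAPD3 had more than 1 start. NCAPH2 had no entry. The 4 windows below are shown because MKI67 and TOP2A are the best known genes of the group, and NCAPD2 and NCAPG are subunits of the same complex whose transcripts differed in their pattern over the libraries. Capitals mark TTTGAA (CHR) and CCAAT (NF-Y) on either strand, so the reverse letters TTCAAA and ATTGG are also in capitals.
MKI67 (chr10:128126374-128126673, minus strand): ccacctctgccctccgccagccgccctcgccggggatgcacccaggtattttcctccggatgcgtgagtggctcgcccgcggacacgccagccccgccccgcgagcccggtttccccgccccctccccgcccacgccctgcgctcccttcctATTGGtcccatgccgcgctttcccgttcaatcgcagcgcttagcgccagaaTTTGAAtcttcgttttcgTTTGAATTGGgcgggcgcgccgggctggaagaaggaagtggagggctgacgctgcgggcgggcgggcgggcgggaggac
TOP2A (chr17:40417847-40418146, minus strand): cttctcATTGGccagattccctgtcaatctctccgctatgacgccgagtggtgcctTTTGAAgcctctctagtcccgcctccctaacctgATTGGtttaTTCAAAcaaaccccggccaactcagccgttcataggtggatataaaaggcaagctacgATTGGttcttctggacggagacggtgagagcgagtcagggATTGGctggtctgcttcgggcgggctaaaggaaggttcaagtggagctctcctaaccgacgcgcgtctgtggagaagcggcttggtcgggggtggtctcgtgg
NCAPD2 (chr12:6493852-6494151, plus strand): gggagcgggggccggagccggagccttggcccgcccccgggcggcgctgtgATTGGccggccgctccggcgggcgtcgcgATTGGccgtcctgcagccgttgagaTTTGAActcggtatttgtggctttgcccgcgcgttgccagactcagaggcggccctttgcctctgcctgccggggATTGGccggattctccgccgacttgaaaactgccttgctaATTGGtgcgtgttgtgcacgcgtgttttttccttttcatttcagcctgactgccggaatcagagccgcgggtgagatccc
NCAPG (chr4:17810729-17811028, plus strand): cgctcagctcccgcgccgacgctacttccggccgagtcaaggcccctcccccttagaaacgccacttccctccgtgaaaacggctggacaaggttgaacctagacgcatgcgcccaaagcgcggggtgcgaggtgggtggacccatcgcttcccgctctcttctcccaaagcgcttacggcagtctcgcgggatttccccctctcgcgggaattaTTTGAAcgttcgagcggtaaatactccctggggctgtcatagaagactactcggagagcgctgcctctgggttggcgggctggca

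In the MKI67 window, TTTGAA lay at positions -47 to -42 and -29 to -24 from the start, and the second of these shared its last base with an inverted CCAAT box at -24 to -20. TOP2A held 4 inverted CCAAT boxes and 2 CHR matches, NCAPD2 held 4 inverted CCAAT boxes and 1 CHR match, and NCAPG held 1 CHR match at -35 to -30 and no CCAAT box. Over the group, TTTGAA was found in 8 of 12 windows, from 8 of the 9 genes, against 15.2% of all 35116 windows in the table and 10.25% of the 15381 windows of tested genes. NCAPH was the gene without it. CCAAT was found in 5 of 12 windows, from 5 genes, against 34.6% of all windows. The CHR variant TTCGAA was in 0 of 12 windows. Of the E2F motifs TTTGGCGC, TTTCGCGC and TTTCCCGC, only the last was matched, in 1 NCAPD3 window. A match is a description of these letters and was not tested for binding.

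The targeted gene was lower in the libraries labelled PLEK2 shRNA. PLEK2 stood at 86.0, 72.6 and 82.9 CPM (counts scaled by the library total and TMM) in shNC and at 16.02, 32.2 and 34.9 CPM with PLEK2 shRNA, so the groups did not overlap. Its log2 fold change was -1.54 (SE 0.24) with an adjusted p of 0.684 by edgeR's quasi-likelihood test on groups alone, and -1.57 (SE 0.17) with an adjusted p of 0.00106 when the replicate number entered as a block. The shRNA target, gctggtgtactacaagcttga, matched exon 2 of 9 of PLEK2 (chr14:67397753-67397773, GRCh38) and was an exact match to no other gene. Estimated counts summed to between 14377532 and 15602732 per library. The epithelial markers EPCAM (152 to 172 FPKM), KRT8 and KRT18 were abundant in every library. Of the 6 epithelial markers tested, KRT8, KRT18, KRT19 and CDH1 were lower with PLEK2 shRNA in all 3 pairs and 0 were higher in all pairs. Of all tested genes, 21.1% were lower and 19.9% higher in all 3 pairs. EPCAM and CDX2 varied in sign between pairs, 0 of the 6 passed in either fit, and the median log2 fold change was -0.20. The part of these markers in the results that follow was not tested. VIL1 did not exceed 0.08 FPKM. Of the markers of other cell types, PECAM1 was at 0.02 FPKM or less, COL3A1 at 0.04 FPKM or less, VIM at 0.30 to 0.95 FPKM and COL1A1 at 4.26 to 5.94 FPKM. COL1A1 had log2 ratios of -0.096, -0.25 and -0.25 within pairs, its groups overlapped, and PTPRC was not analysed here.

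Levels of different genes were compared only as FPKM, which is scaled to transcript length and library total. MKI67 was the most abundant of the group, with 82.9 to 114 FPKM over the 6 libraries and a mean of 94.0 ± 12.6 (SD, n = 6). It was followed by NCAPH2 (mean 38.2 FPKM), TOP2A (37.9), NCAPD2 (36.3), NCAPH (32.4), NCAPG2 (25.5), NCAPG (25.4), NCAPD3 (24.9) and SMC4 (22.8). SMC2 was the lowest, with 4.54 to 8.61 FPKM and a mean of 6.11 ± 1.91 (SD, n = 6). MKI67 lay above NCAPH2, and SMC4 above SMC2, without overlap between libraries. The ranges of every other pair of neighbours in this order overlapped over the 6 libraries. Read within a library, NCAPD2 was above NCAPH and NCAPH above NCAPG2 in 6 of 6 libraries, whereas the remaining neighbours kept their order in 2 to 4 of 6 and did not differ beyond their spread.

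**Figure D1:**
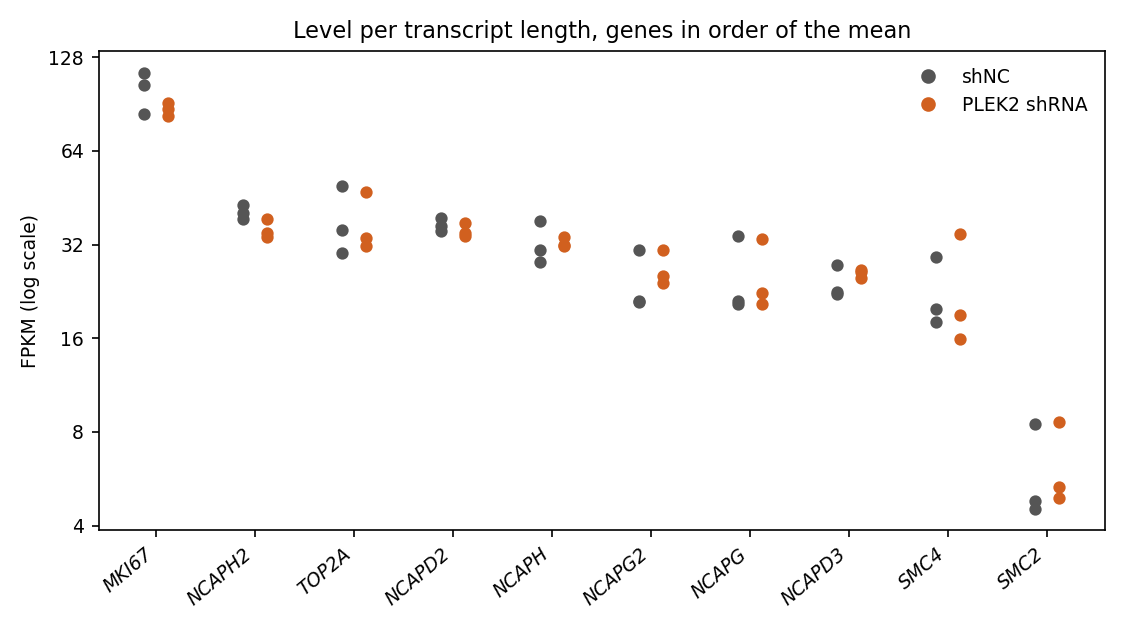
FPKM of the 10 genes on a log axis, in order of their mean over 6 libraries; each point is a library, grey for shNC and orange for PLEK2 shRNA. MKI67 stands above the other genes and SMC2 (4.54 to 8.61 FPKM) below them.

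SMC2 and SMC4 form the same heterodimer, yet SMC4 had 3.26 to 4.15 times the FPKM of SMC2 in each library. The mean FPKM of the 3 subunits particular to condensin I was 1.01 to 1.11 times that of the 3 subunits particular to condensin II. The transcripts of these subunits were thus at a like mean level, and levels of the protein complexes were not measured. Within homologous subunits, the NCAPD2 to NCAPD3 ratio was 1.42, 1.59 and 1.64 in shNC replicates 1, 2 and 3 and 1.36, 1.34 and 1.41 with PLEK2 shRNA. All 3 knockdown libraries lay below all 3 shNC libraries in this ratio, but only just, with 1.41 against 1.42 for the nearest libraries. How often the ratios of other gene pairs separate the groups was not determined. The NCAPH to NCAPH2 ratio was 0.889, 0.758 and 0.729 in shNC and 0.941, 0.970 and 0.822 with PLEK2 shRNA, and here the groups overlapped. The NCAPG to NCAPG2 ratio was 1.11, 0.974 and 1.01 in shNC and 1.09, 0.857 and 0.885 with PLEK2 shRNA. In this ratio the groups overlapped too. With 3 libraries against 3, an exact two-sided permutation test cannot give a p below 0.1, so these ratios are given with no test.

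The question put to the counts was whether silencing PLEK2 changed these transcripts. No gene of the group passed an adjusted p of 0.05, either on groups alone or with the replicate block. On groups alone 0% of the 12959 tested genes passed, and with the block 0.849% did. At an unadjusted p under 0.05, 1 of the 10 genes (NCAPH2) was counted on groups alone, where 3.09% of all genes were. Over the 10 genes, the 95% intervals with the block spanned log2 fold changes from -0.42 (MKI67) to 0.25 (NCAPD3). In a bulk library, fewer cells in G2 or mitosis and less transcript per cell cannot be told apart.

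MKI67 (chr10:128096659-128126423, GRCh38, minus strand) was the 81st gene by count. It was measured at 1305, 1170.0 and 915 CPM in shNC replicates 1, 2 and 3 and at 899.9, 1002 and 951 CPM in PLEK2 shRNA replicates 1, 2 and 3. The shNC libraries spread from above all knockdown libraries (replicates 1 and 2) to within them (replicate 3), so the groups overlapped. The mean was 1130 ± 198 CPM in shNC and 951 ± 51.3 CPM with PLEK2 shRNA (SD, n = 3 each). Within pairs of the same number the log2 ratio was -0.54, -0.22 and 0.056, so pair 3 moved opposite to pairs 1 and 2.

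The log2 fold change of MKI67 was -0.25 (SE 0.12, 95% interval -0.53 to 0.033, edgeR adjusted p = 0.968). The block gave -0.23 (SE 0.085, 95% interval -0.42 to -0.051, adjusted p = 0.172). Its size rested on which libraries were used. It came to -0.12 without shNC replicate 1 and to -0.37 without shNC replicate 3, and it passed the adjusted threshold in 1 of 18 alternatives, the block fit without pair 3 (-0.37, adjusted p = 0.00326). Without pair 1 the block fit gave -0.079 (adjusted p = 0.462).

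TOP2A (chr17:40388525-40417896, minus strand) behaved otherwise. It stood at 280.3, 201 and 168 CPM in shNC and at 259, 187 and 176 CPM with PLEK2 shRNA. Replicate 1 was the highest in both groups, and the groups overlapped almost wholly. The log2 ratios within pairs were -0.12, -0.10 and 0.066, and the fold change was -0.063 (SE 0.20, adjusted p = 0.983). With the block the SE fell from 0.20 to 0.056, and the estimate was -0.053 (95% interval -0.17 to 0.067, adjusted p = 0.649). The MKI67 to TOP2A ratio in FPKM was 2.32, 2.93 and 2.81 in shNC and 1.76, 2.70 and 2.75 with PLEK2 shRNA, so both markers of cycling cells did not keep a fixed ratio, and replicate 1 had the lowest value in each group.

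**Figure D2:**
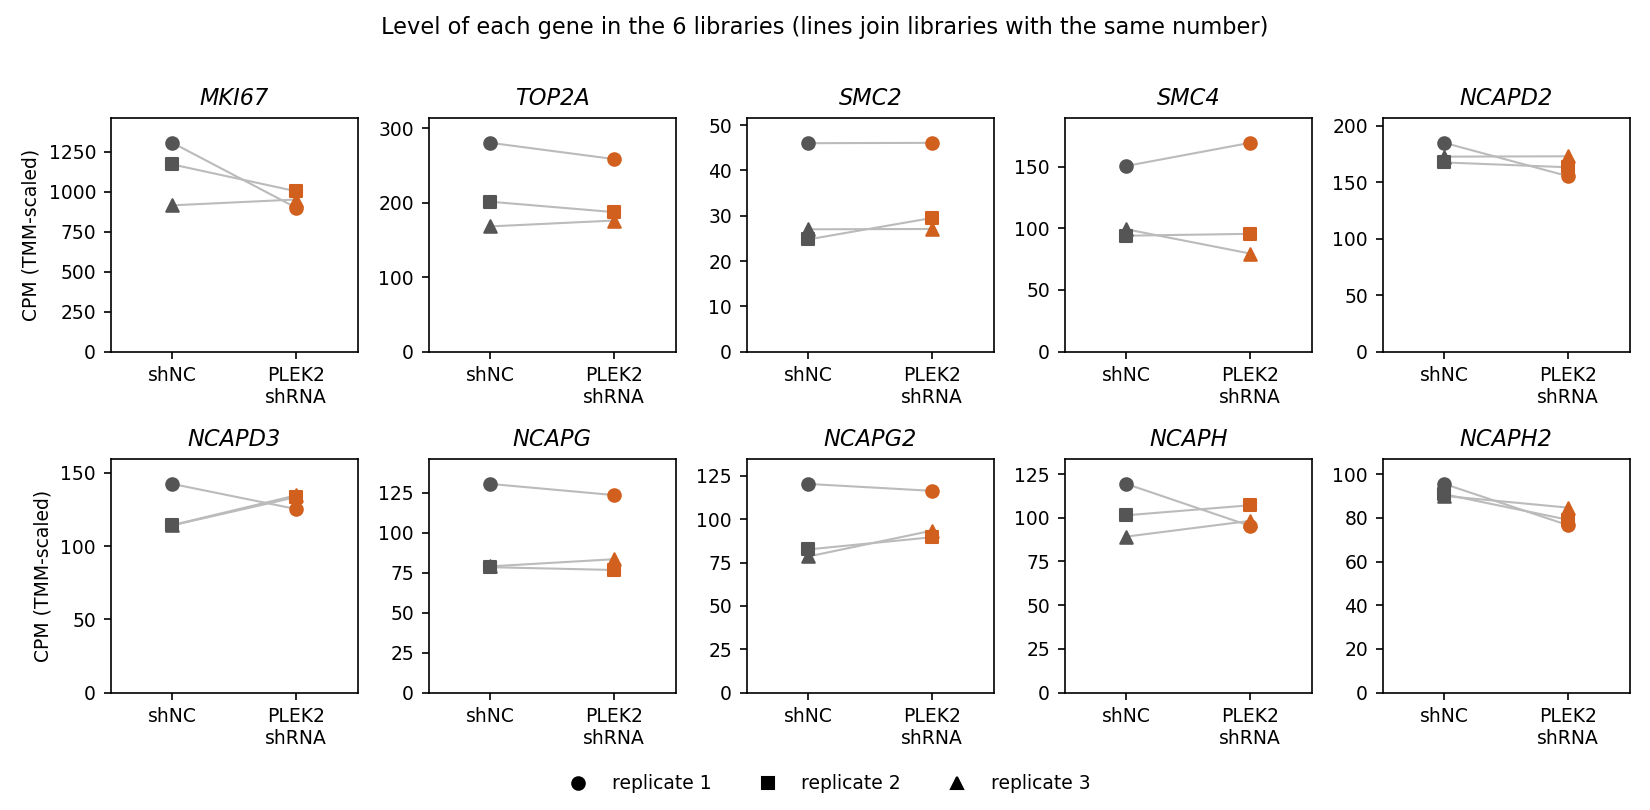
TMM-scaled CPM of each gene in the 6 libraries, with axes from 0; lines join libraries of the same number. TOP2A, SMC2, SMC4, NCAPG and NCAPG2 have replicate 1 on top in both groups, and only NCAPH2 has all PLEK2 shRNA libraries (76.6 to 84.7 CPM) below all shNC libraries (90.0 to 95.5 CPM).

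The ATPase subunits shared by both condensins showed no common direction. SMC2 (chr9:104094260-104141419, plus strand) was at 46.0, 24.8 and 27.0 CPM in shNC and at 46.1, 29.5 and 27.1 CPM with PLEK2 shRNA. Replicates 1 and 3 were nearly equal between the groups, with log2 ratios of 0.0024 and 0.0037, and pair 2 differed by 0.25. SMC4 (chr3:160399274-160434954, plus strand) was at 151, 94.0 and 99.2 CPM in shNC and at 169, 95.5 and 79.6 CPM with PLEK2 shRNA. Its pairs ran from 0.17 through 0.023 to -0.32, so pairs 1 and 3 were opposite. The log2 fold changes were 0.069 (SE 0.27) for SMC2 and 0.0024 (SE 0.28) for SMC4, the widest errors of the group. Neither sign was stable, since leaving out 1 library moved SMC2 from -0.21 to 0.42 and SMC4 from -0.39 to 0.26. With the block SMC4 was at -0.034.

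Of the condensin I subunits, NCAPD2 (chr12:6493356-6531955, plus strand) is a HEAT-repeat subunit. It stood at 185, 168 and 173 CPM in shNC and at 155, 163 and 173 CPM with PLEK2 shRNA, so the groups overlapped, with log2 ratios of -0.25, -0.037 and 0.0028. Its fold change was -0.095 (SE 0.080, adjusted p = 0.968). NCAPG (chr4:17810979-17844865, plus strand), the other HEAT-repeat subunit of condensin I, was at 131, 78.5 and 79.0 CPM in shNC and at 124, 76.7 and 83.5 CPM with PLEK2 shRNA. As in TOP2A, replicate 1 stood apart in both groups, and the log2 ratios within pairs were as small as -0.079, -0.033 and 0.079. NCAPH (chr2:96335766-96377091, plus strand), the kleisin that closes the ring, was at 119, 101 and 89.2 CPM in shNC and at 95.4, 107 and 98.2 CPM with PLEK2 shRNA. It fell short of shNC in pair 1 alone (-0.32) and exceeded it in pairs 2 and 3 (0.079 and 0.14), and its fold change was -0.044 (SE 0.11).

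Of the condensin II subunits, NCAPD3 (chr11:134150113-134225504, minus strand), a HEAT-repeat subunit, was at 142, 114 and 114 CPM in shNC and at 125, 133 and 135 CPM with PLEK2 shRNA. The highest of the 6 libraries was shNC replicate 1, while the other shNC libraries were the lowest, so the groups overlapped. Pair 1 gave a log2 ratio of -0.18, and pairs 2 and 3 gave 0.22 and 0.24. Its fold change was 0.084 (SE 0.10, adjusted p = 0.968), and the block fit without pair 1 was its only alternative of 18 to pass (0.24, adjusted p = 0.0130). NCAPG2 (chr7:158631169-158704804, minus strand), the counterpart of NCAPG, was at 120.3, 82.6 and 78.5 CPM in shNC and at 116, 89.6 and 93.4 CPM with PLEK2 shRNA. Replicate 1 was again the highest in each group, the pairs gave -0.048, 0.12 and 0.25, and the fold change was 0.089 (SE 0.17, adjusted p = 0.969).

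NCAPH2 (chr22:50508224-50524780, plus strand), the kleisin of condensin II, was at 95.5, 90.8 and 90.0 CPM in shNC and at 76.6, 79.1 and 84.7 CPM with PLEK2 shRNA. Every knockdown library lay below every shNC library in CPM. The log2 ratios within pairs were -0.32, -0.20 and -0.088, all in 1 direction. The fold change was -0.20 (SE 0.080, 95% interval -0.38 to -0.019), with an unadjusted p of 0.0339 and an adjusted p of 0.968 by edgeR, and the block gave -0.20 (SE 0.061) with an adjusted p of 0.118. NCAPH2 thus did not pass, and in 0 of 18 alternatives did it do so. In FPKM the groups overlapped, since PLEK2 shRNA replicate 3 (38.79) lay just above shNC replicate 3 (38.66). Pair 3 was thus not lower in FPKM, and the shared direction and the separation of the groups hold for CPM.

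NCAPH2, NCAPD3 and NCAPG had fractional estimated counts in each of the 6 libraries, as happens when a read is shared out between genes, whereas the counts of the other 7 genes were integers. The exons of NCAPH2 overlap those of SCO2 on the opposite strand over 857 bases, those of NCAPD3 overlap VPS26B over 249 bases and JAM3 over 1889 bases, and those of NCAPG overlap LCORL over 1634 bases. Overlap was not limited to these genes, since SMC4 overlaps TRIM59 over 1553 and IFT80 over 243 bases and NCAPD2 overlaps MRPL51 over 383 bases, also on the opposite strand, with integer counts. Strand use in counting is not stated, so reads in these stretches cannot be told apart. Summed with SCO2, the log2 ratios of NCAPH2 within pairs were -0.29, -0.15 and -0.076, all below 0, but this sum was whole in only 2 of the 6 libraries, within a tolerance of 0.02, so in the others SCO2 does not account for all of the divided reads. NCAPH2 also overlaps the lncRNA ENSG00000272821 on the same strand over 855 bases, a gene for which no count was used here. Sums were whole in 6 of 6 libraries for NCAPD3 with VPS26B, with log2 ratios of -0.060, 0.14 and 0.12, and for NCAPG with LCORL, with -0.033, -0.052 and 0.055.

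**Figure D3:**
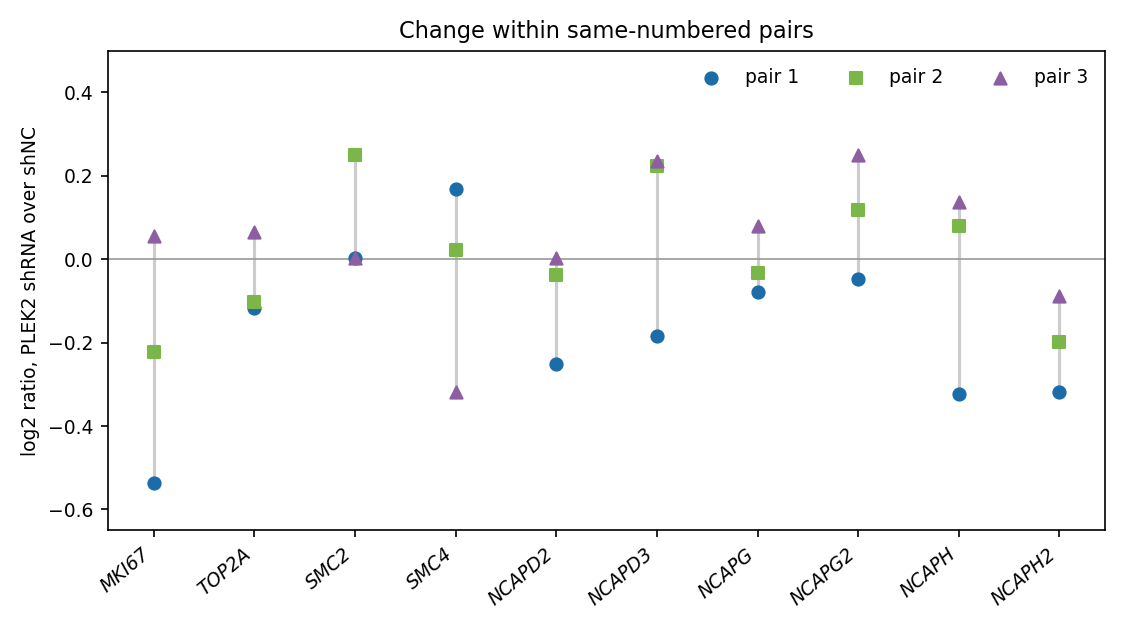
log2 ratio of CPM, PLEK2 shRNA over shNC, within each of the 3 same-numbered pairs for the 10 genes; grey lines span the pairs. NCAPH2 is below 0 in all pairs (-0.32 to -0.088), SMC2 is above 0 in all pairs with 2 ratios under 0.01, and the pairs of the other 8 genes lie on both sides of 0.

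In CPM, NCAPH2, 1 of the 10 genes, was lower in all 3 pairs, where 21.1% of all tested genes were. SMC2 was the 1 gene higher in all 3 pairs, where 19.9% of all tested genes were. With 10 genes, these counts are near the shares of all genes, and with library totals 2 genes were higher in all pairs, where 26.8% of all genes were. NCAPH2 was also the 1 gene with PLEK2 shRNA below shNC without overlap in CPM, against 5.12% of all genes. In the same measure 0 genes lay above without overlap, against 4.08%. With 1 library left out, the count without overlap in either direction came to 4 without shNC replicate 1, where 36.1% of all genes did not overlap. It came to 2 without shNC replicate 3 (15.56% of all genes) and to 2 without PLEK2 shRNA replicate 3 (16.3%).

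The pairs differed from each other more than the group differed from the rest. The median log2 ratio of the 10 genes was -0.15 in pair 1, -0.0047 in pair 2 and 0.061 in pair 3, beside medians of 0.00099, -0.0044 and -0.00092 over all tested genes. Pair 1 was lower for 8 of the 10 genes and pair 3 for 2. The pairs also differed in the fall of PLEK2 itself, with log2 ratios of -2.42, -1.17 and -1.24 in pairs 1, 2 and 3. The part of this difference in the pair ratios of the 10 genes was not tested. The median fold change of the group was -0.033, beside -0.0021 over all genes tested. MKI67 had the widest range between pairs (0.59), followed by SMC4 (0.49), NCAPH (0.46) and NCAPD3 (0.42), and NCAPG had the narrowest (0.16).

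**Figure D4:**
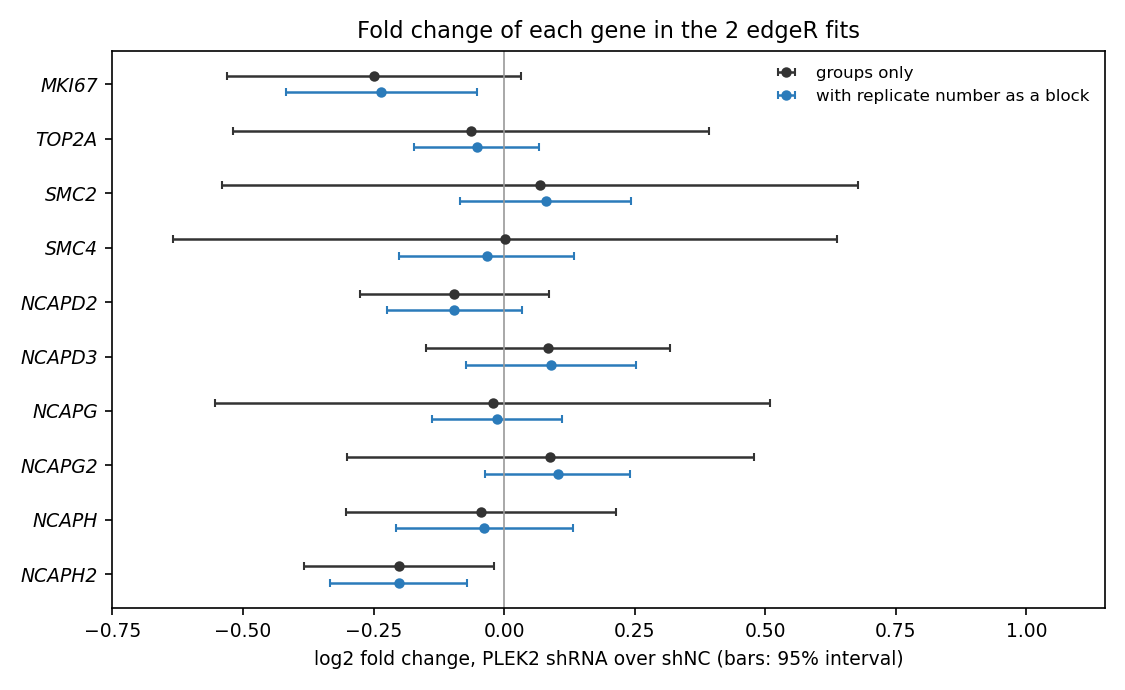
log2 fold change, PLEK2 shRNA over shNC, with 95% intervals from edgeR on groups alone (black) and with the replicate block (blue). The intervals of TOP2A, SMC2, SMC4, NCAPG and NCAPG2 narrow most with the block, and those of MKI67 and NCAPH2 with the block lie below 0 although the adjusted p is 0.172 and 0.118.

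The replicate number marked a larger difference in some of these genes than the shRNA did. In the block fit, replicate 1 was compared with replicates 2 and 3 across both groups, a contrast added with earlier results known. TOP2A, SMC2, SMC4, NCAPG and NCAPG2, 5 of the 10 genes, were higher in replicate 1 at an adjusted p under 0.05, where 19.4% of all tested genes were. The log2 excess was 0.80 (SE 0.080) for SMC4, 0.77 (SE 0.077) for SMC2, 0.68 (SE 0.059) for NCAPG, 0.56 (SE 0.058) for TOP2A and 0.46 (SE 0.067) for NCAPG2, with edgeR adjusted p between 1.88e-05 and 0.000326. None of the 10 genes was lower, where 17.3% of all genes were.

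The excess was seen in each group taken alone. In SMC2 it was 0.83 in shNC and 0.70 with PLEK2 shRNA, and in TOP2A 0.61 and 0.51. In MKI67, NCAPD2, NCAPD3, NCAPH and NCAPH2 it was positive in shNC (0.079 to 0.34) and negative with PLEK2 shRNA (-0.12 to -0.095). For these 5 genes, replicate 1 therefore stood above the others in shNC and below them in the knockdown, and their adjusted p for the number ranged from 0.286 to 0.956.

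The 5 genes higher in replicate 1 were also the 5 with the lowest GC content. Their canonical transcripts (GENCODE 44) held 36.6% to 43.96% GC, against 46.1% to 61.3% in the other 5. Across the 12478 tested genes with a value, GC content and the excess of replicate 1 correlated at r = -0.65, a description across genes, which are not independent replicates. The median excess was 0.30 in the 20% of genes with the lowest GC and -0.24 in the 20% with the highest. The fold change also ran with GC content (r = -0.43), with medians of 0.10 and -0.12 in the same sets. NCAPH2, the gene lower in all 3 pairs in CPM, had the highest GC content of the group. The 20% of genes with the highest GC had median log2 ratios of -0.083, -0.099 and -0.16 in pairs 1, 2 and 3. The part of GC content in these results was not tested.

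**Figure D5:**
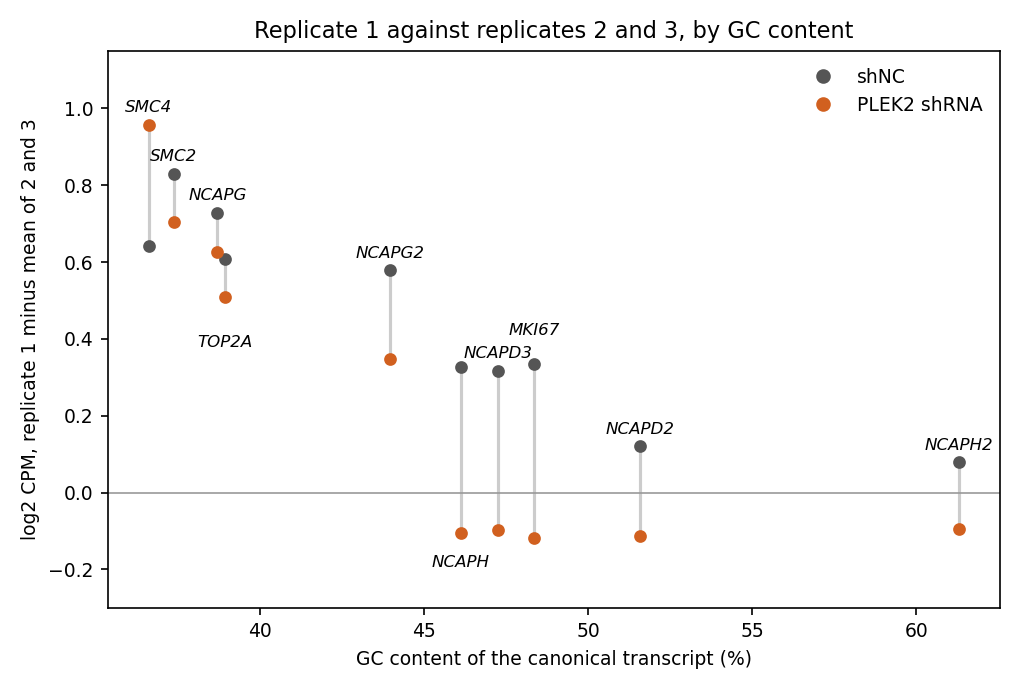
log2 CPM of replicate 1 minus the mean of replicates 2 and 3, in shNC (grey) and with PLEK2 shRNA (orange), against the GC content of each canonical transcript in percent. The 5 genes at 43.96% GC or less are above 0 in both groups, and the 5 genes at 46.1% or more are above 0 in shNC and below 0 with PLEK2 shRNA.

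Genes that work with the group were read from lists written with earlier results of these data known. Of 10 mitotic regulators of condensin, 0 passed on groups alone and 1 fell with the block. This was PLK1, the polo-like kinase that phosphorylates condensin II, with 253, 246 and 226 CPM in shNC and 149, 208 and 182 CPM with PLEK2 shRNA. The PLK1 groups did not overlap, and its log2 fold change was -0.43 (SE 0.12), or -0.44 with the block (edgeR adjusted p = 0.0283). BIRC5 and AURKB, both of the chromosomal passenger complex, had log2 fold changes of -0.13 (SE 0.070) and -0.16 (SE 0.090) and passed in neither fit. The median of this list was -0.089.

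Of 22 genes of cohesin and SMC5/6, the other complexes built on SMC ATPases, 0 passed in either fit, and the median log2 fold change was 0.050. ESPL1, the separase that cleaves cohesin, was at -0.17 (SE 0.097), and 14 of the 22 were higher in replicate 1, where 19.4% of all tested genes were. Of 5 other topoisomerases 0 passed in either fit. TOP1 was at 0.15 (SE 0.081) and TOP3B at -0.21 (SE 0.11). Of 10 genes of the chromosome periphery, where Ki-67 resides, 0 passed in either fit, and BOP1 (-0.16, SE 0.10) and NIFK (0.18, SE 0.13), a partner of Ki-67, differed in sign. Of 14 transcription factors of G2/M promoters, 0 passed in either fit. MYBL2 was at -0.18 (SE 0.083), and LIN9, a MuvB subunit, at 0.28 (SE 0.15).

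Among 50 G2/M genes, 0 passed on groups alone and 1 fell with the block. It was CTCF, an insulator protein rather than a mitotic factor, with a log2 fold change of -0.49 (SE 0.13) or -0.51 with the block (adjusted p = 0.0246). In this list 8 genes were lower and 9 higher in all pairs, where 21.1% and 19.9% of all tested genes were. In replicate 1, 29 were higher (19.4% of all tested genes), and the median fold change was -0.0052. At an unadjusted edgeR p under 0.05 on groups alone, 2 fell (CTCF and TACC3) and 0 rose, where 3.09% of all tested genes were counted. TACC3 (-0.20, SE 0.085) and RANGAP1 (-0.16, SE 0.071) passed in neither fit. In both, PLEK2 shRNA lay below shNC without overlap, as in 5.12% of all tested genes. Among 43 S phase genes, 0 passed on groups alone. TYMS, thymidylate synthase, had a log2 fold change of -1.30 (SE 0.21) on groups alone and -1.31 (adjusted p = 0.00333) with the block. Its groups did not overlap, and the median of the list was -0.0066.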

How the data were processed

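The samples were grouped, and numbered, by the submitters' labels. The authors deposited an estimated count per gene and library, without normalization, and a length-scaled value with no unit in the header, read as FPKM from its column sums. The submitters' processing notes list HISAT2 2.0.4, Bowtie2 2.2.5, RSEM 1.2.12, DESeq2 1.4.5 and the build GRCm38.p6, with no role. That is a mouse build, whereas the table holds human symbols, so the build behind the counts is not settled. Between 14.6% and 15.8% of genes in a library had counts that were not whole. Columns of the authors' group means were not used.

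Counts were rounded and tested with edgeR 4.0.16 (filterByExpr defaults, TMM, quasi-likelihood test, Benjamini-Hochberg adjustment over 12959 genes, adjusted p under 0.05) on groups alone. The study names an unpaired t-test in its general statement on statistics, which is not specific to these counts. A library count is limited by counting error, and no pair of libraries in a group agreed within it (chi-square per gene of 2.97 to 19.3). Libraries sharing a number deviated together from their groups (r = 0.734, 0.554 and 0.548 across 10151 genes whose mean log2 CPM exceeded 3, against -0.63 to 0.35 for differing numbers), so the numbers were taken to pair the libraries. Deviations were taken from group means of 3 libraries, so these r depend on each other. Replicate 1 stood apart in both groups, which alone gives positive r among replicates 2 and 3. The pairing of 2 with 2 and of 3 with 3 is thus less sure than that of replicate 1. The labels give no shared day or batch. The replicate block was the other fit. The settings varied were the scaling (size factors of DESeq2 1.42.0 or library totals), the filter, DESeq2's Wald test, limma 3.58.1 on log2(FPKM + 1), and single libraries or pairs left out. The scripts were tested on simulated data. Other tools were R 4.3.3, Python 3.11.15, pandas 2.3.3 and numpy 2.4.6.

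The members and lists were chosen with earlier results of these data known. Named were every member, PLEK2, up to 3 genes of each list with the smallest p, and the 5 genes most like MKI67 and TOP2A. Cell type markers and genes overlapping a member were named outside this rule. One result among the lists is not reported here. The replicate 1 contrast was added after seeing the data. Gene coordinates come from GENCODE 44 (GRCh38), matched by symbol, and promoters from RefSeq (GRCh38.p14), matched by NCBI gene number.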

Additional observations from a re-analysis of the deposited data

How the results depend on the processing

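Over 18 alternatives per gene, MKI67, NCAPD2 and NCAPH2 stayed below 0 and NCAPD3 above 0. With 0 genes called on groups alone by edgeR (400 at an unadjusted p under 0.05), DESeq2 called 12, the replicate block 110, the block with library totals 192 and with DESeq2 57, and the block without pair 1, 2 or 3 gave 528, 18 and 297. Leaving out single libraries gave 0 to 1 gene (1 without PLEK2 shRNA replicate 1). PLEK2 passed at -1.53 with DESeq2, and in the same block fits at -1.57, -1.54, -1.60, -1.21, -1.78 and -1.74. Without single libraries it came to -1.74 to -1.26 and passed only without PLEK2 shRNA replicate 1 (-1.26, adjusted p = 0.0106). The block called 1 of the 10 genes without pair 1 and 1 without pair 3, and 0 otherwise. Genes higher in all pairs used numbered 2 with library totals (26.8% of all genes), 4 without pair 1 (32.5%) and 2 without pair 3 (31.7%), and those lower numbered 5 without pair 3 (28.3%). Counts without overlap ran from 1 to 4 over single libraries, with 14.2% to 36.1% of all genes. Signs turned for values near 0. NCAPG was 0.013 with library totals, 0.019 with these and the block, 0.021 by limma, and 0.029 and 0.0093 with the block without pair 1 or 2. SMC4 was -0.034 with the block, -0.0013 with library totals and -0.030 with DESeq2 beside the block, and -0.14 and -0.053 without pair 1 or 2. NCAPH was 0.018 by limma and 0.11 with the block without pair 1. Single libraries moved TOP2A from -0.25 to 0.18, SMC2 from -0.21 to 0.42, SMC4 from -0.39 to 0.26, NCAPG from -0.26 to 0.28, NCAPG2 from -0.036 to 0.32 and NCAPH from -0.13 to 0.085. The cause was not tested. TPM made from the FPKM values scales all genes of a library alike, so it could not change their order within a library. The block changed no other call of the 10 genes. With 3 libraries per group, the SE on groups alone reached 0.28 (SMC4), against at most 0.085 (MKI67) with the block.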

Other observations

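The genes whose log2 CPM was most like that of MKI67 over the 6 libraries, out of 10141 genes searched, were ABCB8 (r = 0.986), INCENP (0.985), KIF4A (0.983), GTSE1 (0.977) and ELOB (0.973). INCENP, KIF4A and GTSE1 act in mitosis, and all 3 had their highest value in shNC replicate 1. INCENP stood at 125, 116 and 91.7 CPM in shNC and at 94.6, 104 and 94.5 CPM with PLEK2 shRNA, with log2 ratios of -0.40, -0.16 and 0.043 within pairs, and its groups overlapped. KIF4A, the chromokinesin that binds condensin I, had -0.41, -0.085 and 0.051, and its log2 fold change was -0.16 (SE 0.11, edgeR adjusted p = 0.968).

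The genes most like TOP2A were CLOCK, FAM241A, ATAD2, FAM13B and PRDM1, with r between 0.994 and 0.996. None of the 10 genes named here passed on groups alone or with the block, and the adjusted p with the block lay between 0.209 for GTSE1 and 0.916 for FAM241A. These are descriptions over 6 libraries chosen from many genes, and libraries of the same number are not independent.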
